A study of Caenorhabditis elegans with 36 samples.

Results

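The comparison was between whole worms given the vehicle DMSO at 5 days and at 3 days, the last interval of a vehicle time course. It used 6 of the 36 small RNA libraries of the series, 3 at each time, taken by the sample labels for treatment and time. Earlier results of these data were known when the comparison, the lists and the tests were chosen. All worms were hermaphrodites of N2, the wild-type laboratory strain of Caenorhabditis elegans, and the agent was DMSO at 0.1 %. The other groups used here were worms given rotenone, an inhibitor of mitochondrial complex I, at 100 nM at 3 and 5 days, worms given H2O at 0.1 % at 5 days, and worms given DMSO at 6 hours, 1 day and 2 days, each with 3 libraries. The series title counts time from treatment, whereas the sample labels enter it as age, and the developmental age of the worms at each time remains unknown here. The labels do not state whether the 3 libraries of a time are separate cultures. The p-values rest on the spread among libraries within groups, estimated from all 36 libraries of the series together. That spread may therefore be technical.

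MicroRNAs (miRNAs) are short RNAs cut from hairpin precursors and loaded into Argonaute proteins, which they guide to messenger RNAs that are then repressed. The bases near the 5′ end of the miRNA, called the seed, largely decide which messages are recognised, so miRNAs with the same seed are grouped into families. In C. elegans, miRNAs were first found as timers of larval development, and individual ones are known to act in embryos, muscle, neurons, intestine and in adult lifespan. The table gave raw read counts per hairpin, with its arms not separated, and hairpins of nearly identical sequence can share reads. For mir-44 and mir-45, for example, the 3-day libraries held 22795, 22316 and 22506 CPM (counts scaled to library size) of mir-44 and 22829, 22205 and 22369 CPM of mir-45. Such members may not be separate measurements.

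The 3-day libraries held 7169540 to 10204476 counts and the 5-day libraries 4361246 to 6040997. On the TMM-scaled CPM used here, 3 counts stood for 0.2895 to 0.4062 CPM at 3 days and 0.5431 to 0.7697 CPM at 5 days. Per the labels, all DMSO libraries of 3 days ran on lane 3 and those of 5 days on lane 1, so that the difference in time is also a difference in lane. Values within lane 1 come from DMSO at 2 days and are given below. In whole worms, fewer cells of a type and less RNA per cell cannot be told apart. The markers mir-1, of muscle, mir-60, of intestine, and mir-228, of glia, were present in every library of both groups, at no less than 288, 1582 and 20168 CPM. Values below are log2 fold changes of 5 against 3 days with their standard error, n = 3 at each time. The adjusted p-values come from the quasi-likelihood test of edgeR, with the method of Benjamini and Hochberg over all 193 hairpins tested. A hairpin is said to have risen or fallen where that adjusted p was under 0.05.

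Between 3 and 5 days the miRNAs of DMSO worms changed widely, with as many rises as falls. The mir-238 family, mir-34, mir-253 and the let-7 relatives mir-84, mir-48 and mir-795 were among those that rose. Members of the mir-51, mir-35 and mir-2 families, 3 of 4 miRNAs listed as neuronal and the muscle miRNA mir-1 were among those that fell. In all, 88 of 193 hairpins passed (45.6%), 44 higher at 5 days (22.8%) and 44 lower (22.8%). The groups did not overlap in 100 hairpins (51.8%), 52 higher (26.9%) and 48 lower (24.9%) at 5 days. Most changes were small: 37 hairpins passed with a change above 1.5-fold and 15 with one above 2-fold. The median log2 fold change over all 193 hairpins was -0.00415 with TMM scaling, in which the bulk of hairpins is assumed not to change. Scaling to total counts instead moved this median to -0.21, and 95 hairpins then passed, 26 higher and 69 lower.

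With TMM scaling the balance of rises and falls differed between levels, most clearly between 10 and 100 CPM. It was not counted by level under total counts, and differences between levels were not tested. Of the 25 hairpins above 10000 CPM, 11 rose and 6 fell, and of the 27 between 1000 and 10000 CPM, 10 rose and 7 fell. Of the 36 between 100 and 1000 CPM, 19 rose and 9 fell, whereas of the 47 between 10 and 100 CPM, 1 rose and 16 fell. The precision also differed, since the median standard error was 0.0647 above 10000 CPM and 0.483 among the 58 hairpins under 10 CPM, of which 3 rose and 6 fell. The hairpins that rose took 51.7% ± 1.05 (SD, n = 3) of all counts at 3 days and 60.8% ± 0.762 at 5 days. Those that fell took 22.4% ± 1.16 and 15.7% ± 0.647. Both sets were chosen by their change in these same libraries, so the direction of these shares follows from the choice and is a description.

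The 12 largest rises among hairpins of at least 10 CPM ran from 1.54-fold to 2.01-fold. These 12, and the 12 largest falls below, were chosen among hairpins whose groups did not overlap. mir-253, which is annotated inside the gene F44E7.5, had 271, 280 and 256 CPM at 3 days and 568, 570 and 486 CPM at 5 days. All 5-day libraries lay well above all 3-day libraries, a rise of 2.01-fold (log2 1.01 ± 0.068, adjusted p = 2.18e-15). At the earlier times of the DMSO course its mean was between 204 and 256 CPM. mir-248 rose from 802, 1083 and 954 CPM to 1733, 1752 and 1620 CPM (log2 0.85 ± 0.072, adjusted p = 9.37e-13). Its 3-day libraries were more spread than its 5-day libraries, and the groups did not overlap. mir-249 (log2 0.62 ± 0.092) and mir-5592-1 (log2 0.62 ± 0.062) were the smallest of the 12. mir-5592-1 is annotated on the opposite strand of the same place as mir-5592-2, which had nearly the same values (log2 0.61 ± 0.07), so their counts cannot be told apart.

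The mir-238 family, miRNAs linked by mutants to adult lifespan, rose as a whole. In it 3 of 3 members passed, against 22.8% of all hairpins that rose, with a median log2 of 0.77. mir-238, whose loss shortens lifespan, had 12667, 12930 and 11513 CPM at 3 days and 19772, 19909 and 20143 CPM at 5 days. The 5-day libraries were close to each other and far above those of 3 days (log2 0.69 ± 0.06, adjusted p = 1.57e-12). mir-239a rose from 1539, 1638 and 1587 CPM to 2994, 3099 and 3121 CPM (log2 0.95 ± 0.063, adjusted p = 1.62e-15), and mir-239b by 1.7-fold (log2 0.77 ± 0.097, adjusted p = 1.28e-08). mir-239a and mir-239b are close relatives, so the division of reads between them is uncertain. The mean of mir-239a was higher at each later time of the DMSO course, at 754, 951, 1079, 1588 and 3071 CPM at 6 hours and 1, 2, 3 and 5 days.

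Beyond this family, mir-34, a miRNA conserved to mammals that takes part in responses to stress and damage, had 972, 1050 and 1045 CPM at 3 days and 1701, 1830 and 1876 CPM at 5 days. It rose by 1.76-fold with no overlap (log2 0.82 ± 0.051, adjusted p = 5.14e-16). mir-246, which promotes longevity, rose by 1.34-fold (log2 0.42 ± 0.053, adjusted p = 9.62e-09). mir-71, the best known longevity miRNA of the worm, had 12622, 13558 and 12809 CPM at 3 days and 12379, 12826 and 13282 CPM at 5 days. Its groups overlapped, and its difference was near 0 (log2 -0.02 ± 0.064, adjusted p = 0.855). Counted as a list, 7 of 8 lifespan-associated miRNAs passed as higher, against 44 of all 193 hairpins (22.8%). The median log2 of the list was 0.62 against -0.00415 over all hairpins. Of the 10 stress-associated miRNAs, which hold 6 of the same names, 7 also rose, with a median of 0.39. Under scaling to total counts 6 of the 8 and 5 of the 10 rose, and 1 and 2 fell. With that scaling 26 of all 193 hairpins rose and 69 fell.

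**Figure D1:**
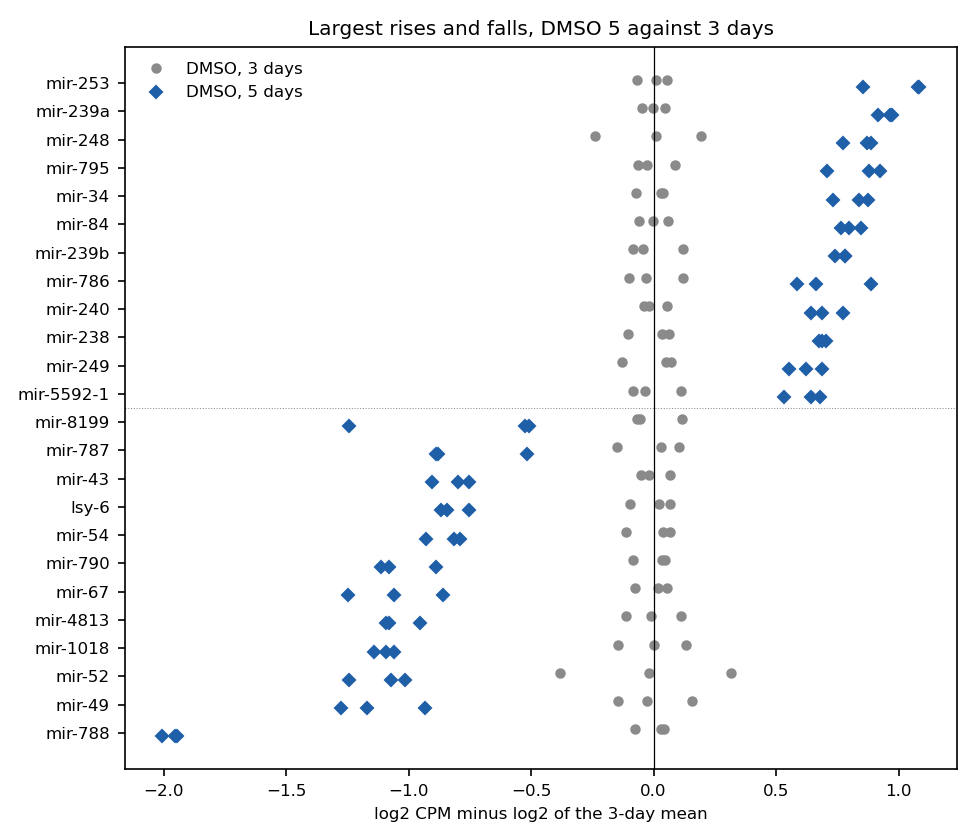
Levels in each library of the 12 largest rises (top) and 12 largest falls (bottom) among hairpins of at least 10 CPM. They are given as log2 CPM minus the log2 of the mean of the 3-day libraries. Grey circles are the 3 libraries of DMSO at 3 days and blue diamonds those at 5 days. In each of the 24 miRNAs the groups do not overlap, by the rule that chose them, and mir-788 lies apart from the others, about 2 log2 units below its 3-day level.

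The let-7 family holds the timers of larval development. In it 6 of 8 members rose and none fell with TMM scaling (median log2 0.35), where 22.8% of all hairpins rose. With total counts 3 rose and 1 fell, where 26 of all 193 hairpins rose and 69 fell. mir-84 had 3353, 3640 and 3494 CPM at 3 days and 6071, 6288 and 5945 CPM at 5 days, with no overlap (log2 0.80 ± 0.045, adjusted p = 2.85e-17, the smallest of all). Before that its mean had dropped from 5453 CPM at 6 hours to 2476 CPM at 2 days, and its mean at 5 days was 6102 CPM. mir-48 and mir-241, which act with mir-84 in larval stages and neighbour each other on the chromosome, rose by 1.48-fold (log2 0.57 ± 0.054, adjusted p = 2.13e-11) and 1.34-fold (log2 0.42 ± 0.092, adjusted p = 0.000213). Under total counts mir-241 did not pass (log2 0.21). mir-795, a more distant member, rose from 104, 116 and 107 CPM to 200, 207 and 178 CPM (log2 0.84 ± 0.077, adjusted p = 7.93e-12). Its neighbour mir-794 (log2 0.27 ± 0.071) and mir-793 (log2 0.23 ± 0.087) also rose, although mir-793 was lower at 5 than at 2 days (log2 -0.31). let-7 itself, which acts at the change from larva to adult, had 2255, 2258 and 2282 CPM at 3 days and 2160, 2057 and 1985 CPM at 5 days. Its groups did not overlap and its value lay just outside the threshold (log2 -0.13 ± 0.056, adjusted p = 0.0507). mir-1821 did not pass either (log2 -0.03 ± 0.21).

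lin-4, the founding miRNA, which shuts off lin-14 early in larval life, and its sister mir-237 moved apart. mir-237 had 18677, 16898 and 16420 CPM at 3 days and 12821, 13685 and 13376 CPM at 5 days (log2 -0.38 ± 0.064, adjusted p = 3.89e-06). lin-4 had 660, 589 and 571 CPM at 3 days and 644, 729 and 812 CPM at 5 days, and here the groups overlapped (log2 0.27 ± 0.098, adjusted p = 0.0247). This call was lost without the second or the third library of either time, with log2 values from 0.18 to 0.27, and under total counts (log2 0.06).

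The mir-58 family, related to bantam of flies and known to act on growth through TGF-β signalling, took 30.2% ± 1.38 of all counts at 3 days and 34.1% ± 0.888 at 5 days. Of its 5 members 4 rose, against 22.8% of all hairpins, with a median log2 of 0.35. Under total counts 3 rose, where 26 of all 193 hairpins did, and mir-82 did not pass (log2 0.09). mir-80 had 58476, 65188 and 60045 CPM at 3 days and 89009, 94161 and 86703 CPM at 5 days (log2 0.55 ± 0.053, adjusted p = 2.28e-11). mir-58a rose from 46673, 51736 and 51815 CPM to 66451, 71845 and 64973 CPM (log2 0.44 ± 0.071, adjusted p = 2.42e-06). mir-81 and mir-82 rose by 1.27-fold (log2 0.35 ± 0.065) and 1.23-fold (log2 0.30 ± 0.078, adjusted p = 0.00168). The fifth member, mir-58b, was under 4 CPM in every library and did not pass (log2 0.22 ± 0.43).

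mir-72 had the most counts after mir-82 and gave the smallest adjusted p among the 10 hairpins with the most counts. Its libraries held 73222, 76268 and 77476 CPM at 3 days and 117370, 117110 and 112307 CPM at 5 days. The groups lay far apart (1.53-fold, log2 0.61 ± 0.05, adjusted p = 5.57e-13), after means between 66736 and 75655 CPM at the earlier times. Its relative mir-74 fell from 572, 537 and 577 CPM to 365, 386 and 382 CPM (log2 -0.57 ± 0.065, adjusted p = 1.45e-09), and mir-73 did not pass (log2 -0.09 ± 0.095). The family therefore moved in both directions. Among the other hairpins with the most counts, mir-57, which acts with Hox genes in the tail, had 55579, 54202 and 57445 CPM at 3 days and 49066, 49623 and 46845 CPM at 5 days (log2 -0.20 ± 0.069, adjusted p = 0.0154). That call was lost without the third library of 3 days (log2 -0.18) or of 5 days (log2 -0.18). mir-70 (log2 0.09 ± 0.049), mir-90 (log2 0.15 ± 0.069) and mir-235 (log2 0.20 ± 0.095), a miR-92 relative that holds back growth in starved larvae, did not pass. The call of mir-90 was gained without the third 5-day library (log2 0.20) and that of mir-235 without the third 3-day library (log2 0.33). In a fit with treatment, time and lane as terms, mir-70 (log2 0.15), mir-90 (log2 0.16) and mir-235 (log2 0.34) all passed. The change with time in that fit, cited below as lane as a term, is shared by all treatments and is not that of DMSO alone. The 10 hairpins with the most counts took 60.1% ± 0.774 of all counts at 3 days and 63.1% ± 0.814 at 5 days.

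In the mir-64 family 3 of 5 members rose with TMM scaling (median log2 0.28), against 22.8% of all hairpins. Under total counts none of the family rose and 1 fell, where 26 of all 193 hairpins rose and 69 fell. mir-64 (log2 0.36 ± 0.067, adjusted p = 1.93e-05), mir-65 (log2 0.35 ± 0.077) and mir-63 (log2 0.28 ± 0.055) were those that rose. mir-66 (log2 0.13 ± 0.06) and mir-229 (log2 0.08 ± 0.048) did not pass. These members apart from mir-63 lie in the gene gcn-1.

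mir-240 and mir-786 are neighbours, of which mir-786 acts on the defecation rhythm in the intestine, and both rose. mir-240 had 2581, 2447 and 2416 CPM at 3 days and 3998, 4244 and 3879 CPM at 5 days (log2 0.70 ± 0.058, adjusted p = 5.57e-13). mir-786 had 86.6, 78 and 74.4 CPM and then 126, 119 and 148 CPM (log2 0.72 ± 0.091, adjusted p = 1.32e-08). The fold changes of the 2 neighbours, 1.63 and 1.65, differed by less than their errors, although their levels differ widely. mir-60, another intestinal miRNA, went the other way: it had 2042, 2305 and 2139 CPM at 3 days and 1582, 1776 and 2101 CPM at 5 days (log2 -0.25 ± 0.093, adjusted p = 0.0271). Its groups overlapped and the call was lost without the second 3-day library (log2 -0.20) or the first (log2 -0.16) or second (log2 -0.23) 5-day library.

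Among hairpins of at least 10 CPM the largest fall was that of mir-788. It had 44.8, 44.4 and 41.3 CPM at 3 days and 11.3, 10.8 and 11.2 CPM at 5 days. All libraries of a group were close together, and the level fell to 0.256 of that at 3 days (log2 -1.96 ± 0.17, adjusted p = 2.26e-12). Its earlier course was uneven, with means of 121 ± 4.48 (SD, n = 3) at 6 hours, 29.5 ± 4.42 at 1 day and 77.8 ± 19.5 CPM at 2 days. The other 11 of the 12 largest falls ran from log2 -0.71 to -1.12. mir-4813, annotated inside idhg-1, the gene of an isocitrate dehydrogenase subunit, had 109, 92.7 and 99.8 CPM at 3 days and 47.5, 51.8 and 47.1 CPM at 5 days (log2 -1.04 ± 0.086, adjusted p = 5.3e-13). Its mean at 2 days was 226 CPM, and between 2 and 3 days its log2 fold change was -1.17. mir-67 fell from 64.1, 65.8 and 60.1 CPM to 26.7, 30.3 and 34.9 CPM (log2 -1.03 ± 0.1, adjusted p = 8.54e-11). mir-787 (log2 -0.75 ± 0.11) and mir-8199 (log2 -0.71 ± 0.14) fell less.

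In the mir-51 family, relatives of miR-100 with a role in embryos, 4 of 6 members fell and none rose (median log2 -0.48). Of all hairpins 22.8% fell. Under total counts 6 of the family fell, where 69 of all 193 hairpins did. mir-52 had 2890, 3654 and 2250 CPM at 3 days and 1394, 1238 and 1449 CPM at 5 days. The 3-day libraries were widely spread, and each lay above every 5-day library, as the choice of the largest falls required (log2 -1.11 ± 0.1, adjusted p = 1.21e-11). mir-54 fell from 5176, 5291 and 4669 CPM to 2647, 2870 and 2915 CPM (log2 -0.84 ± 0.057, adjusted p = 2.18e-15), and mir-51 from 2789, 2432 and 2261 CPM to 1566, 1553 and 1661 CPM (log2 -0.65 ± 0.071, adjusted p = 6.16e-10). mir-56 fell by less (log2 -0.31 ± 0.088, adjusted p = 0.00335), and its call was lost without the first 3-day library (log2 -0.20). mir-53 (log2 -0.24 ± 0.12) and mir-55 (log2 -0.11 ± 0.06) did not pass.

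The mir-35 family is made in oocytes and embryos and is needed for embryonic survival. It took 12.9% ± 0.258 of all counts at 3 days and 9.7% ± 0.414 at 5 days. Of its 8 members 5 fell and none rose (median log2 -0.29), where 22.8% of all hairpins fell. Under total counts 7 of the 8 fell, where 69 of all 193 hairpins did. mir-42 had 151, 138 and 131 CPM at 3 days and 115, 92.2 and 86.5 CPM at 5 days (log2 -0.52 ± 0.1, adjusted p = 4.73e-05). mir-41 (log2 -0.41 ± 0.091, adjusted p = 0.000212) and mir-40 (log2 -0.35 ± 0.1, adjusted p = 0.00548) fell with no overlap. mir-35 itself had 54675, 52225 and 49556 CPM at 3 days and 41835, 42985 and 43882 CPM at 5 days (log2 -0.28 ± 0.1, adjusted p = 0.0244). The groups of mir-35 did not overlap, but its call was lost without the first 3-day library (log2 -0.25) or the first (log2 -0.26) or second (log2 -0.28) 5-day library. That of mir-37 (log2 -0.29 ± 0.12), whose groups overlapped, was lost without any of 4 libraries, the first or the third of 3 days and the first or second of 5 days (log2 -0.22 to -0.30). mir-36 (log2 -0.17 ± 0.091), mir-38 (log2 -0.16 ± 0.11) and mir-39 (log2 0.02 ± 0.079) did not pass. The call of mir-36 was gained without the first 3-day library (log2 -0.24) and with only the groups compared (log2 -0.20). With lane as a term, where the change is shared by all treatments, mir-36 (log2 -0.31) and mir-38 (log2 -0.29) passed as lower. mir-35 had been at 8484 CPM at 6 hours and between 42082 and 46242 CPM at 1 and 2 days, so both groups of the comparison were far above the start of the course.

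The mir-2 family, whose namesake is shared with insects, fell in 3 of 4 members (median log2 -0.62), against 22.8% of all hairpins. mir-43 had 81.8, 88.7 and 83.8 CPM at 3 days and 48.7, 45.3 and 50.3 CPM at 5 days (log2 -0.81 ± 0.093, adjusted p = 1.48e-09). mir-2 fell from 951, 938 and 964 CPM to 622, 628 and 712 CPM (log2 -0.54 ± 0.071, adjusted p = 3.61e-08), while mir-71, which lies beside it in the gene ppfr-1, had a difference near 0, as given above. mir-797 fell from under 10 CPM (log2 -0.69 ± 0.21, adjusted p = 0.00589), a call that was lost without the second 5-day library (log2 -0.51). mir-250 did not pass (log2 0.06 ± 0.057). In the mir-44 family 1 of 4 members fell, the rare mir-247 (log2 -1.09 ± 0.34, adjusted p = 0.00807). Its groups overlapped and its call was lost without the third 3-day library (log2 -0.91) or the first (log2 -0.86) or the third (log2 -0.93) 5-day library, and with lane as a term (log2 -0.37). mir-44 (log2 0.04 ± 0.049), mir-45 (log2 0.05 ± 0.05) and mir-61 (log2 0.00 ± 0.044) did not pass with TMM scaling, whereas under total counts all 4 fell. With total counts 69 of all 193 hairpins fell.

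The miR-29 relatives mir-49 and mir-83 went opposite ways. mir-49 had 271, 219 and 238 CPM at 3 days and 127, 108 and 100 CPM at 5 days (log2 -1.12 ± 0.085, adjusted p = 6.06e-14). mir-83 had 266, 229 and 226 CPM and then 290, 287 and 294 CPM (log2 0.27 ± 0.093, adjusted p = 0.0151). The rise of mir-83 was small, and its call was lost without the second (log2 0.24) or the third (log2 0.23) 3-day library and under total counts (log2 0.06). Of the miR-9 relatives, mir-75 rose with overlapping groups (log2 0.29 ± 0.097, adjusted p = 0.0129) and mir-79 did not pass (log2 0.06 ± 0.073). The call of mir-75 was lost without the first 3-day library (log2 0.20) or the third 5-day library (log2 0.13). mir-233 fell with overlapping groups (log2 -0.23 ± 0.07, adjusted p = 0.00576), a call lost without the third 5-day library (log2 -0.19), and its relative mir-87 did not pass (log2 0.08 ± 0.068).

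Of the 4 neuronal miRNAs 3 fell and 1 did not pass (median log2 -0.65), where 22.8% of all hairpins fell. Together the 4 took 0.019% ± 0.000143 of all counts at 3 days and 0.00982% ± 0.000288 at 5 days. lsy-6, which makes a left-right pair of taste neurons differ, had 73.7, 82.6 and 79.9 CPM at 3 days and 46.7, 43.8 and 43.1 CPM at 5 days (log2 -0.82 ± 0.1, adjusted p = 6.2e-09). mir-790, listed here as neuronal, fell from 74.4, 68.6 and 75.1 CPM to 33.6, 39.3 and 34.4 CPM (log2 -1.03 ± 0.12, adjusted p = 6.2e-09). However, mir-790 is annotated within 10 kb of the glial marker mir-228 on the same strand, and mir-228 was also lower, as given below. mir-124, conserved in the neurons of many animals and annotated inside trpa-1, had 16.8, 18.5 and 17.2 CPM at 3 days and 16.2, 14.2 and 8.51 CPM at 5 days (log2 -0.47 ± 0.17, adjusted p = 0.0185). This fall rested on the third 5-day library, without which the difference was log2 -0.20 and did not pass, and it was also lost without the second 3-day library (log2 -0.43). mir-791, of carbon dioxide-sensing neurons, had overlapping groups (log2 0.14 ± 0.17, adjusted p = 0.516).

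The muscle miRNA mir-1 had 449, 555 and 543 CPM at 3 days and 288, 369 and 396 CPM at 5 days (log2 -0.55 ± 0.1, adjusted p = 1.25e-05). The 3-day libraries all lay above the 5-day libraries. The glial marker mir-228 had 29954, 22577 and 26871 CPM and then 20168, 22564 and 23073 CPM (log2 -0.27 ± 0.1, adjusted p = 0.0316), with overlap. Its call was lost without the first (log2 -0.17) or the third (log2 -0.26) 3-day library or the first (log2 -0.21) or second (log2 -0.29) 5-day library, and with lane as a term (log2 -0.17). With mir-60, then, 3 of 3 tissue markers were lower at 5 days, 1 of them with no overlap, against 22.8% of all hairpins that fell. mir-786, which acts in the intestine and is not on this list of markers, rose (log2 0.72 ± 0.091). The part of tissue makeup in the other falls was not tested.

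Of the 3 mirtrons tested, miRNAs whose hairpins are introns freed by splicing, 2 fell, against 22.8% of all hairpins. mir-1018 had 41.3, 34.1 and 37.8 CPM at 3 days and 17.7, 17.1 and 18.1 CPM at 5 days (log2 -1.10 ± 0.14, adjusted p = 2.67e-08). mir-62, in an intron of ugt-50, fell from 46, 51.4 and 45.6 CPM to 30.5, 29.1 and 31.5 CPM (log2 -0.64 ± 0.12, adjusted p = 1.77e-05). mir-1020 did not pass (log2 -0.06 ± 0.13), and mir-1019 had too few counts to be tested.

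**Figure D2:**
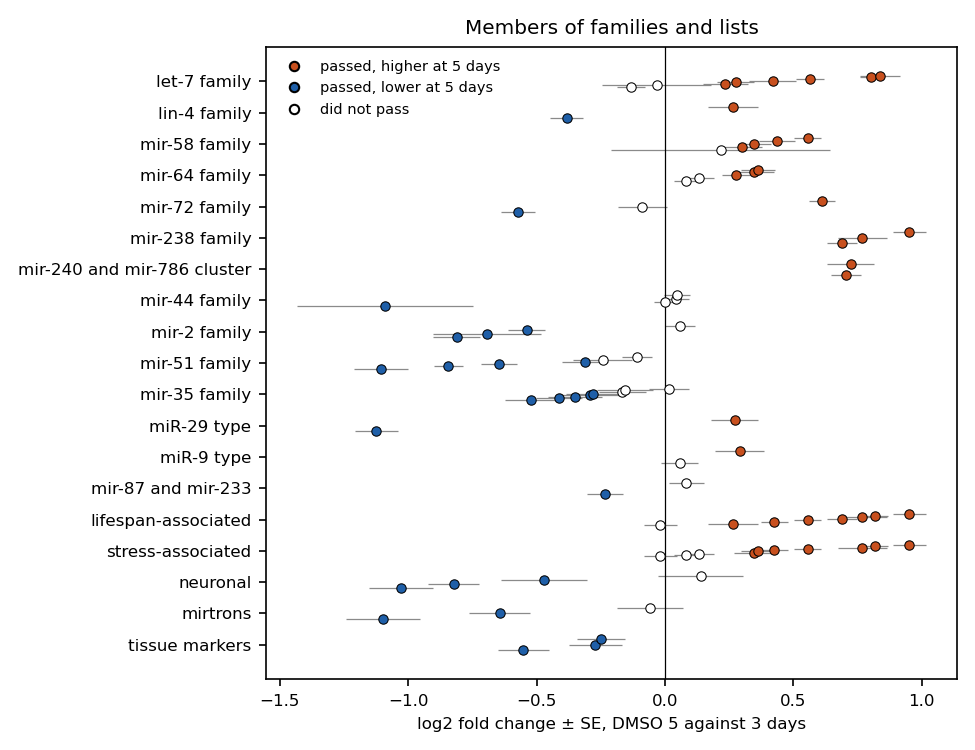
Log2 fold change of 5 against 3 days in DMSO, with its standard error, for each tested member of the families and lists, with n = 3 libraries per group. Orange points rose, blue points fell and white points did not pass. The mir-238 family and the mir-240 and mir-786 pair lie wholly to the right, while the mir-51 family lies wholly to the left with 2 members that did not pass.

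Among hairpins under 10 CPM the counts themselves were small. mir-2221 had 5, 8 and 4 counts at 3 days and 15, 20 and 27 at 5 days. As shares of the TMM-scaled group totals, used for all ratios in this paragraph, this was a ratio of 7.2. Its exact 95% interval of the counts was 4.16 to 13.1, which covers counting error only, and in the fit its adjusted p was 4.3e-06. Its 3-day mean of 0.674 CPM and those of 6 hours, 1 day and 2 days, from 0.152 to 0.347 CPM, were at or near the weight of 3 counts. At 5 days its mean was 4.52 CPM in DMSO, 6.74 in H2O and 4.53 in rotenone. In all other groups of the series it was at most 1.22 CPM. mir-2221 thus passed the filter on counts mainly through the 5-day libraries, where it is high, and its p-value is only a description. mir-8210, in the gene slc-25A29, had 13, 14 and 12 counts and then 14, 25 and 26 (ratio 3.29, 2.18 to 5.03, adjusted p = 2.01e-05). mir-1818 had 14, 16 and 29 counts at 3 days and 1, 2 and 2 at 5 days (ratio 0.167, 0.0524 to 0.413, adjusted p = 0.000583), and mir-255 had 58, 44 and 55 and then 6, 11 and 11 (ratio 0.352, 0.227 to 0.529, adjusted p = 0.000108). mir-360 had 8, 14 and 19 counts and then 1, 0 and 2 (ratio 0.144, 0.0286 to 0.453, adjusted p = 0.0225). The call of mir-360 was lost without the third 3-day library (log2 -2.53) or the first (log2 -2.81) or second (log2 -2.22) 5-day library. Without the third 5-day library it was log2 -3.48. With lane as a term, where the change is shared by all treatments, the log2 values of mir-360 and mir-1818 were -1.71 and -1.56, and both passed. mir-8208, with 9, 6 and 5 and then 8, 7 and 8 counts (ratio 2.27, 1.19 to 4.36, adjusted p = 0.0389), lost its call without any library but the first of 3 days (log2 0.89 to 1.3).

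Changes between neighbouring hairpins were compared by the annotation of the WBcel235 genome, which named 191 of the 193 hairpins. Within 10 kb on the same strand, 61 hairpins formed 23 clusters. Of these 61, 14 rose and 16 fell, near the share of all hairpins (45.6%). At least 2 members passed in 12 clusters, all in the same direction in 11. This is a description, since neighbours can share a transcript or reads, and no comparison with hairpins that are not neighbours was made. The exception was the cluster of mir-73, mir-74 and mir-75, in which mir-74 fell and mir-75 rose. mir-359 and mir-785, neighbours chosen after their values were seen, both rose (log2 0.42 ± 0.11 and 0.49 ± 0.069). In the cluster of mir-42, mir-43 and mir-44, the first pair fell and mir-44 had a difference near 0. The mir-35 cluster lies opposite the gene Y62F5A.9 and that of mir-54, mir-55 and mir-56 opposite F09A5.3. The sources used here do not say whether strand was used in counting, and reads of such genes cannot be told apart from those of the miRNAs.

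Over the 5 times of the DMSO course, 31 of the 44 miRNAs that rose had their highest mean at 5 days, against 46 of all 193 hairpins tested. Their lowest mean was at 1 or 2 days in 30 of 44, against 65 of 193. Of the 44 that fell, 28 had their lowest mean at 5 days (50 of 193) and 26 their highest at 1 or 2 days (63 of 193). Between 2 and 3 days 92 of 193 hairpins passed (47.7%), 47 higher (24.4%) and 45 lower (23.3%). The counts over the course share the 5-day and 3-day libraries with the choice of the miRNAs and are a description. The means of mir-49 were 167, 344, 372, 243 and 112 CPM at 6 hours and 1, 2, 3 and 5 days, with the highest at 2 days. mir-43 had means of 20.2, 133, 156, 84.7 and 48.1 CPM and was also highest at 2 days. Those of mir-34 were 888, 658, 703, 1022 and 1802 CPM, with the lowest at 1 day.

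**Figure D3:**
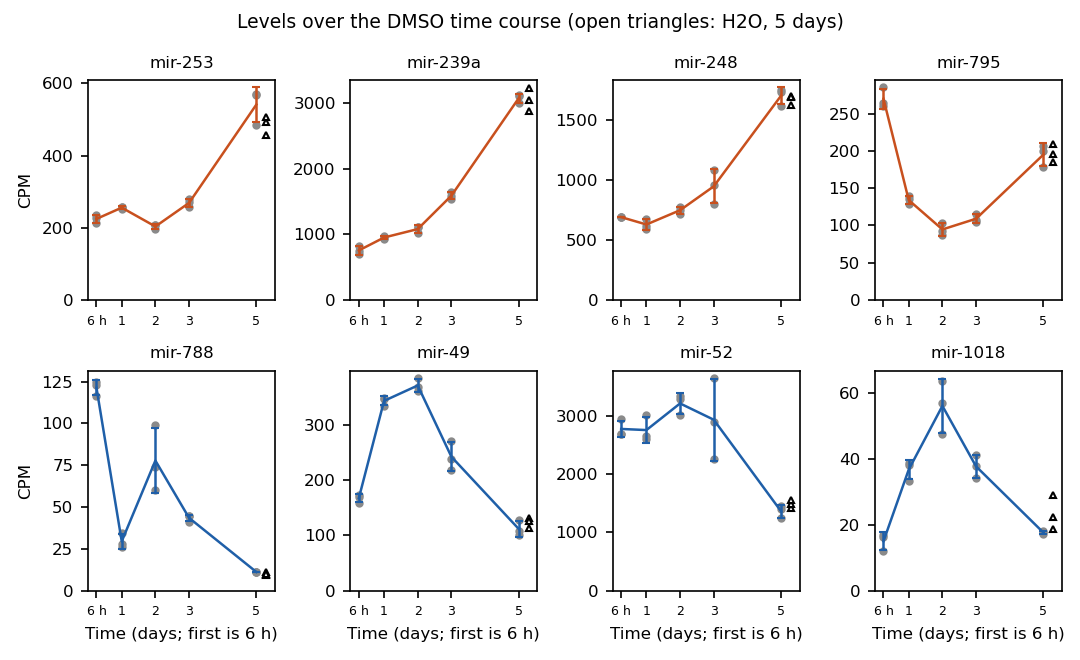
CPM in DMSO worms at 6 hours and 1, 2, 3 and 5 days. Shown are the 4 largest rises (top, orange) and the 4 largest falls (bottom, blue) among hairpins of at least 10 CPM. Grey points are single libraries, lines join the means of 3 libraries with their SD, and open triangles are the 3 libraries of H2O at 5 days. mir-239a climbs throughout, mir-795 starts at 270 CPM and is lowest at 2 days, and mir-788 has the most spread libraries at 2 days.

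The vehicle was compared with water at 5 days, on another lane, with no miRNA passing (edgeR, 0 of 193, 8 at an unadjusted p under 0.05; DESeq2, 0). Among the 135 hairpins of at least 10 CPM the difference ran from log2 -0.49 ± 0.17 for mir-234 to 0.41 ± 0.20 for mir-5545, and 128 were under 0.25 in size. The H2O libraries of 5 days did not overlap with the DMSO libraries of 3 days in 111 of the 193 hairpins (57.5%). Among them were the 24 largest changes, on the same side as DMSO at 5 days, but these had been chosen for not overlapping with the same 3-day libraries. The ranges of DMSO and H2O at 5 days overlapped in 19 of the 24. mir-788, for example, had 9.31, 11.1 and 10.1 CPM in H2O at 5 days, and mir-253 had 493, 506 and 458 CPM. Within lane 1, DMSO at 5 days was compared with DMSO at 2 days, which shares the 5-day libraries. There 131 of 193 passed (67.9%), 64 higher (33.2%) and 67 lower (34.7%). Of the 88 miRNAs that differed between 5 and 3 days, 81 passed here in the same direction, 41 of 44 rises and 40 of 44 falls, while 2 of the 88 had the opposite sign. These were mir-793, which passed as lower (log2 -0.31 ± 0.086), and mir-245, which did not pass (log2 -0.02 ± 0.061). mir-253 gave log2 1.41 ± 0.069 and mir-788 log2 -2.80 ± 0.16 in that comparison, both larger than between 5 and 3 days. mir-60 gave log2 -0.01 ± 0.093 and mir-35 log2 -0.11 ± 0.1, and neither passed. A fit with treatment, time and lane as separate terms gives a change from 3 to 5 days that is shared by all treatments. It called 107 hairpins for that change, 85 of the 88 in the same direction and 0 with the opposite sign. Its values are not the DMSO change alone adjusted for lane. Lane terms passed in 30 hairpins of that fit.

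The same interval was measured in rotenone worms, in libraries that the DMSO comparison does not use. There 95 of 193 passed (49.2%), 42 higher (21.8%) and 53 lower (27.5%) at 5 days. In both treatments 69 miRNAs passed, all in the same direction, 35 higher and 34 lower, which were 78.4% of the calls in DMSO and 72.6% of those in rotenone. Across the 135 hairpins of at least 10 CPM the fold changes in the treatments had a Pearson r of 0.897, and over all 193 it was 0.644 (Spearman rho 0.726). These are descriptions across hairpins, which are not independent replicates. Lane 3 held DMSO at 3 days and rotenone at 5 days. The rotenone groups did not overlap in 116 of the 193 hairpins (60.1%). Among them were the 24 largest changes in DMSO, in the same direction. Those 24 were chosen for size and lack of overlap in DMSO. mir-788 had 40.8, 32.4 and 32 CPM in rotenone at 3 days and 10.5, 10.1 and 11.4 CPM at 5 days. In rotenone 7 of 8 lifespan-associated miRNAs passed as higher, as in DMSO. In the mir-35 family 8 of 8 fell, against 5 in DMSO, and in the let-7 family 3 rose and 1 fell, against 6 and 0. The mir-2 family had 2 of 4 members lower, against 3, and the tissue markers 2 of 3, against 3. Differences between the treatments in these counts were not tested.

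**Figure D4:**
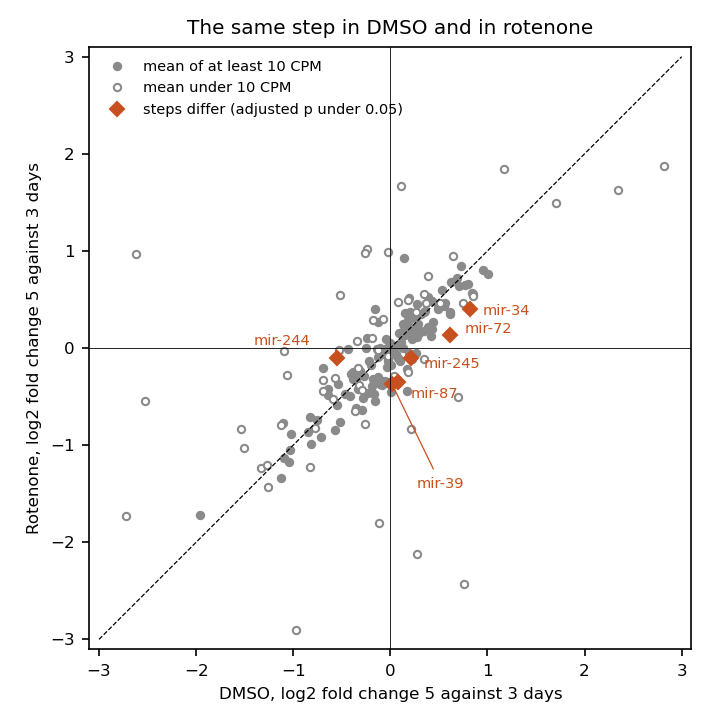
Log2 fold change of 5 against 3 days in DMSO (horizontal) and in rotenone (vertical) for the 193 hairpins tested. Filled points have a mean of at least 10 CPM, open points less, and diamonds are the 6 miRNAs whose change differed between the treatments. Most filled points follow the dashed line of equal change, while mir-244 and mir-39 lie off it near an axis.

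The change from 3 to 5 days differed between DMSO and rotenone in 6 of 193 miRNAs (3.11%), by the test of the difference itself, with 5 positive (2.59%) and 1 negative (0.518%). For mir-72 the rise in DMSO (log2 0.61) was larger than in rotenone (log2 0.13), a difference of log2 0.48 ± 0.071 (adjusted p = 1.42e-05). Its rotenone libraries held 94503, 94620 and 97694 CPM at 3 days and 105610, 102917 and 106198 CPM at 5 days. At 3 days all rotenone libraries were above those of DMSO, and at 5 days below. mir-34 rose in both, by log2 0.82 in DMSO and 0.41 in rotenone, with rotenone libraries of 1126, 1118 and 1190 CPM and then 1409, 1585 and 1556 CPM (difference 0.41 ± 0.072, adjusted p = 0.000168). mir-87 had overlapping groups in DMSO, with 371, 433 and 412 CPM and then 434, 443 and 411 CPM. In rotenone it fell from 471, 498 and 468 CPM to 376, 378 and 377 CPM (difference 0.43 ± 0.096, adjusted p = 0.00512).

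mir-244 was the only one of the 6 with a negative difference. It fell in DMSO from 3651, 3530 and 3481 CPM to 2496, 2520 and 2246 CPM (log2 -0.55 ± 0.083, adjusted p = 4.54e-07). In rotenone its level was already low at 3 days, with 2462, 2354 and 2323 CPM and then 2279, 2422 and 1958 CPM (difference -0.45 ± 0.12, adjusted p = 0.0206). mir-245 rose in DMSO from 2712, 2448 and 2711 CPM to 2913, 3156 and 3033 CPM (log2 0.21 ± 0.061, adjusted p = 0.00423), but not under total counts (log2 0.00), and did not pass in rotenone (difference 0.31 ± 0.086, adjusted p = 0.034). mir-39, a mir-35 relative, had 27521, 34224 and 32763 CPM and then 33311, 31224 and 31007 CPM in DMSO, with overlap. It fell in rotenone from 40971, 41299 and 41717 CPM to 32748, 32967 and 30412 CPM (difference 0.38 ± 0.11, adjusted p = 0.0487). Of 19 alternative settings, the difference passed in 3 for mir-39, 9 for mir-245 and 13 for mir-244. The 4 groups in this test lay on lanes 3, 1, 8 and 3, and the part of the lane in these differences was not tested.

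**Figure D5:**
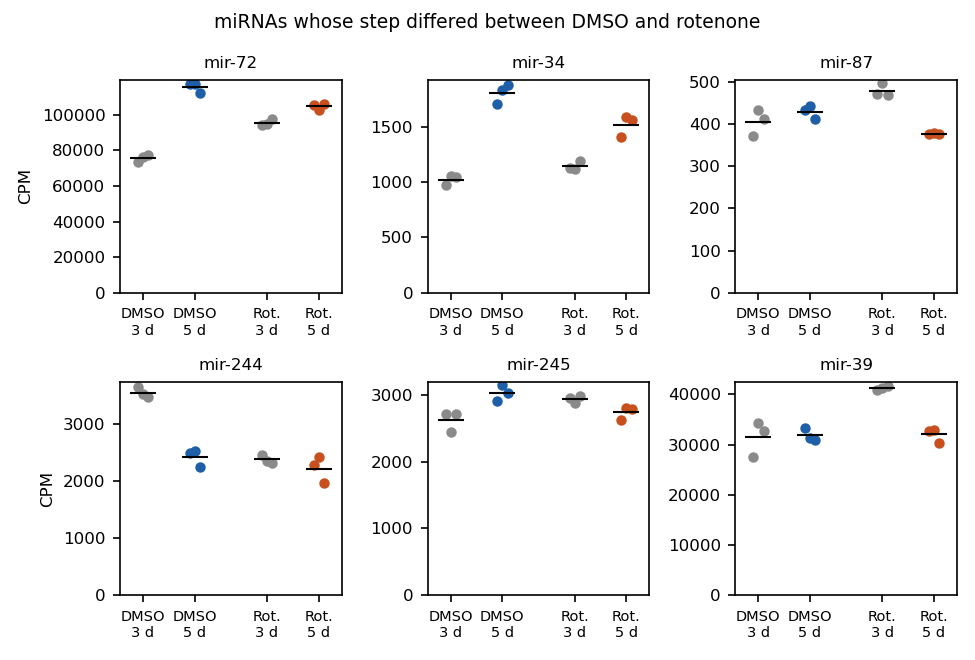
CPM in each library of the 6 miRNAs whose change from 3 to 5 days differed between DMSO and rotenone (Rot.), with horizontal bars at the means of 3 libraries and axes from 0. In mir-244 the DMSO libraries of 3 days stand above all others, and in mir-39 and mir-87 the rotenone libraries of 3 days do.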

How the data were processed

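Per the protocols in the labels, small RNA libraries of whole worms were made with a TruSeq kit. The table deposited by the authors holds raw counts of reads for 250 hairpins in 36 libraries. The submitters' processing notes name SAMtools 1.3.1-9, BWA 0.7.12-r1039, Trimmomatic 0.36 and bcl2fastq 1.8.4, in no order. Genome build, annotation and how reads with several matches were handled are not given in the sources at hand. WBcel235 served only for neighbours and host genes. Mature sequences were not used here.

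In R 4.3.3, 193 hairpins passed filterByExpr (by group, minimum count 10), and the 57 left out held 0.000732% of counts. All 36 libraries (12 groups) were scaled with TMM and fitted together in edgeR 4.0.16 (quasi-likelihood, 1 mean per group, 24 residual and 12.6 prior degrees of freedom, common biological coefficient of variation 0.0678). P-values were adjusted by Benjamini-Hochberg, and called under 0.05. CPM were computed with these factors (0.869 to 1.05 in the 6 libraries). Libraries of a time differed by more than counting noise (chi-square per degree of freedom 29.6 to 239), so none was taken as a repeat of another. This does not show that they are separate cultures. The 6 hairpins named for large changes under 10 CPM are also given as counts with an interval for counting error.

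The comparison, lists and tests were chosen with earlier results of these data known. Named were the 12 largest rises and falls with no overlap and at least 10 CPM, the 3 largest rises and falls under 10 CPM, the 10 hairpins with the most counts, up to 4 members past the threshold per list by p, the tissue markers, the mir-35 family, and the smallest p-values of the difference between treatments. Other hairpins were named after their values were seen, to complete a count. mir-58 and mir-1834 matched no name in the table. The procedure was tested on simulated counts. Alternatives were other scalings (DESeq2 size factors, total counts), no filter, DESeq2 1.42.0, a replicate block, only the groups compared, an additive lane model, and each library left out. Thinning to equal depth was added after the data were seen.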

Additional observations from a re-analysis of the deposited data

Results flagged for a closer look

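For 6 miRNAs the change from 3 to 5 days in DMSO differed from that in rotenone by the test of the difference itself (edgeR's quasi-likelihood test, Benjamini-Hochberg adjusted over 193 hairpins, n = 3 libraries in each of 4 groups). The difference, DMSO minus rotenone on the log2 scale, was 0.4776 for mir-72 and 0.4117 for mir-34, and both passed in all 19 alternative settings. It was 0.4271 for mir-87, which passed in 18 and not under total counts. For mir-244 it was -0.4535, with 13 of 19 settings passing, and the other 6 each left out a library. It was 0.3105 for mir-245, which passed in 9 of 19, and 0.3829 for mir-39, which passed in 3 of 19.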

How the results depend on the processing

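For DMSO at 5 against 3 days 88 hairpins passed, and 75 to 82 did with any 1 of the 6 libraries left out, 89 with DESeq2 size factors, 91 with DESeq2, 81 with no filter, 77 with only the groups compared and 82 with counts thinned to equal depth. Under total counts 95 passed and the share of rises went from 50% to 27.4%. For rotenone 95 passed, and 79 to 95 with a library left out. For the difference between the treatments 6 passed, and 3 to 9 with a library left out, the 3 without the third rotenone library of 3 days or the first of 5 days. The cause was not tested. Same-numbered libraries did not deviate together in DMSO (r -0.00536, 0.0244 and -0.0789 over 135 hairpins). In rotenone r was 0.246, -0.0809 and 0.219, so not every pair was above 0.1, and the numbers were not taken as pairs. With the replicate number as a block 92 passed in DMSO, 93 in rotenone and 6 for the difference. Of 1005 alternative values of the 72 hairpins named by rule, 933 stayed on their side of the threshold. Among these, a change of sign was not counted where neither value passed. Of the rest, 60 lost and 11 gained the call, and 1 reversed: mir-70 under total counts (log2 -0.1207). With only the groups compared the calls of lin-4 (log2 0.22), mir-75 (0.25), mir-83 (0.23) and mir-245 (0.17) were lost, with no filter those of mir-83 (0.23), mir-245 (0.16) and mir-8208 (1.12), under total counts those of mir-63 (0.07), mir-64 (0.15), mir-65 (0.14), mir-75 (0.09) and mir-8208 (0.97) besides those given above, and with thinning that of mir-247 (-0.98). For 46 of the 72 no alternative changed the call. Counts under 10 CPM limit the rarest hairpins most.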
